A study of Mus musculus with 12 samples.

Results

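The Polycomb repressor genes described here are 10 genes of the deposited count table, which holds 54232 genes: Ezh1, Ezh2, Eed, Suz12, Jarid2, Bmi1, Ring1, Rnf2, Cbx2 and Cbx7. They were chosen by name and not by a cut on measured values, though with earlier results of these data known. Each matched 1 Ensembl identifier in the table. Their transcripts were measured by 3′ RNA sequencing in intestinal stem cells (ISCs), the dividing cells at the base of the crypts of the small intestine. The 12 libraries fall into 4 groups of 3, and the study prepared each from an individual female mouse. SM6 young and SM6 old are ISCs of wild-type C57/Bl6 mice aged 2 and 22 months, sorted by a panel of surface markers. Lgr5-GFP young and Lgr5-GFP old are ISCs of mice of the same ages that carry Lgr5-EGFP-IRES-CreERT (as the labels spell it; the study's methods write CreERT2), a reporter and inducible recombinase driven by the ISC gene Lgr5. The labels give no treatment for any group. Strain and isolation change together, so they cannot be told apart. The labels give the surface-marker sort for every library, whereas a supplementary legend describes a sort by GFP for the reporter mice.

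Polycomb proteins keep developmental genes silent and act in a pair of complexes. Polycomb repressive complex 2 (PRC2) methylates histone H3 at the mark known as H3K27, through Ezh2 or its relative Ezh1 together with Eed and Suz12, and accessory subunits such as Jarid2 help to place it on chromatin. Polycomb repressive complex 1 (PRC1) ubiquitylates histone H2A through Ring1 or Rnf2, pairs them with a partner such as Bmi1, and in its canonical form reads the PRC2 mark through a Cbx protein. In the intestine, PRC2 is known for sustaining crypt cell proliferation and Bmi1 for its use as a marker of slowly cycling reserve stem cells.

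Library totals ran from 970472 to 3815425 counts, and all 10 genes had counts in all 12 libraries. ISC markers were abundant in every group, with the summed level of 10 markers between 7805 and 16262 CPM, counts relative to the scaled library total. In SM6, 4 of these 10 were called lower in old ISCs (Olfm4, Sox9, Cdk6 and Znrf3), against 1.77% of all tested genes. The sum of the 10 was 7805 to 9283 CPM in old against 13064 to 16262 in young libraries. Most of this sum was Olfm4, with means of 10728 CPM in SM6 young and 5995 in SM6 old. Lgr5 was not called (-0.39, adjusted p = 0.284 by edgeR), and Ascl2 was the 1 marker of the 10 above 0 (0.17, not called). In Lgr5-GFP 0 were called and 8 of 10 had a log2 fold change below 0, with sums of 10334 to 11458 CPM in old and 12618 to 14186 in young libraries, and 4 were called lower on average (2.06% of all genes). Markers of differentiated cells also moved with age. All 8 Paneth cell markers were higher in SM6 old than in SM6 young (median log2 fold change 2.35, 2 of 8 called, against 0.643% of all genes called higher), and all 8 were lower in Lgr5-GFP old than in Lgr5-GFP young (median -2.64, 2 of 8 called, against 0.284% of all genes called lower). Their summed level ran from 10664 to 67291 CPM in SM6 young, from 43942 to 272425 in SM6 old, from 42962 to 243875 in Lgr5-GFP young and from 18058 to 30763 in Lgr5-GFP old. Defensin transcripts, the main Paneth product, made up 23.1% of the counts in SM6 old replicate 3 and 23.2% in Lgr5-GFP young replicate 1, against 1.26% to 12.4% in the other libraries. Of 7 goblet cell markers, 5 were called higher in SM6 old (Muc2, Tff3, Agr2, Zg16 and Spink4), with sums of 17307 to 18224 CPM against 5705 to 9116 in SM6 young. In Lgr5-GFP 0 of the 7 were called and 6 were below 0, with sums of 3153 to 5495 CPM in old and 5298 to 13740 in young ISCs. Of 8 enterocyte markers, 4 were called higher in SM6 old (Alpi, Fabp1, Fabp2 and Sis) and 2 were called lower in Lgr5-GFP old (Apoa1 and Apoa4). The summed enterocyte level was 1776 to 1912 CPM in SM6 young, 2428 to 9083 in SM6 old, 1620 to 2904 in Lgr5-GFP young and 1960 to 11783 in Lgr5-GFP old. Sst was the single one of 7 enteroendocrine markers called with age, higher in SM6 old, and 0 of 5 tested tuft cell markers were called. The part of these cells in the values below was not tested, and the count of called members is also given without the 2 defensin-rich libraries. Summed immune markers stayed at or below 29.0 CPM and summed stromal and endothelial markers at or below 8.68 CPM. In sorted bulk samples, fewer cells of a type and less RNA per cell cannot be told apart.

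None of the 10 Polycomb genes was called in any comparison of these libraries. Here called means an adjusted p under 0.05 in edgeR's quasi-likelihood test, with Benjamini-Hochberg adjustment across 13368 tested genes. In SM6, 0 of 10 were called with age, where 2.42% of all tested genes were. In Lgr5-GFP, 0 of 10 were called, against 0.471% of all genes. For the average of both age effects the figures were 0 of 10 and 2.66%, and for the difference between the age effects 0 of 10 and 0.658%. Lgr5-GFP and SM6 differed in 0 of 10 genes in young ISCs, against 0.0898% of all genes, and in 0 of 10 in old ISCs, against 0.718%. At an unadjusted p under 0.05 the count was also 0 of 10 in each of the 6 comparisons. Of all genes, 13.1% passed that limit for age in SM6, 9.79% for age in Lgr5-GFP, 12.8% for the average, 9.43% for the difference of the age effects, 7.47% between young isolations and 9.4% between old ones. The lowest adjusted p among the 60 tests was 0.460 (edgeR), for Cbx2 in the average age effect. DESeq2, limma voom and edgeR's likelihood ratio test called 0 of 10 in each comparison as well, and so did the fit without the 2 defensin-rich libraries. A count of 0 among 10 genes does not set them apart from these backgrounds, and 4.14% of all genes were called in at least 1 of the 6 comparisons.

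**Figure D1:**
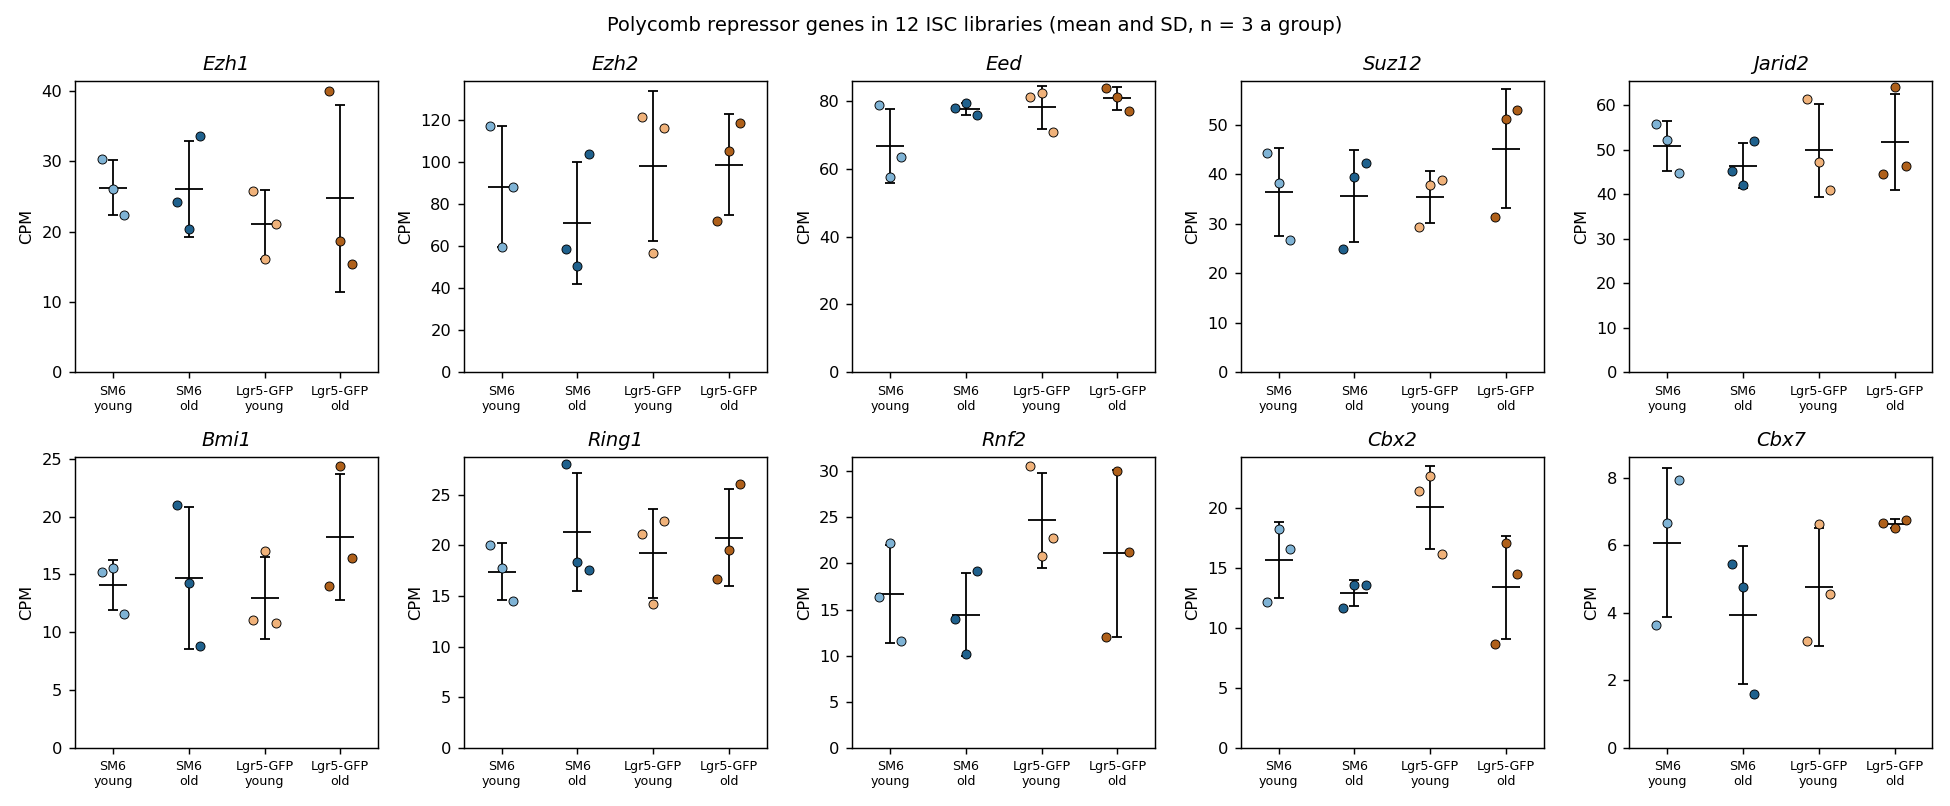
Level of each of the 10 Polycomb genes in every library, in CPM on linear axes that start at 0, with the 4 groups along the horizontal axis. Points are libraries, horizontal bars the group means and error bars the SD of 3 libraries; young and old points overlap for every gene in both isolations.

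The median of the 10 genes was within 0.1 of that of all genes for age in each isolation on the log2 scale, and 0.23 above it between old isolations. In SM6 the median log2 fold change of old over young was -0.09 for the 10 genes and -0.007 for all tested genes, with 7 of 10 members below 0 against 50.7% of all genes. In Lgr5-GFP it was 0.05 against -0.034, with 3 of 10 below 0 against 53.6% of all genes. Between old Lgr5-GFP and old SM6 it was 0.23 against 0, with 2 of 10 below 0 against 49.8% of all genes. Their summed level was 308 to 394 CPM in SM6 young, 293 to 368 in SM6 old, 321 to 406 in Lgr5-GFP young and 330 to 418 in Lgr5-GFP old, so the 4 ranges overlapped.

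Ezh2 (chr6:47530139-47595341 in GRCm38, minus strand), the methyltransferase of PRC2 in dividing cells, spread widely within every group. In SM6, young libraries measured 117, 59.3 and 88.2 CPM and old libraries 58.4, 50.2 and 104 CPM. In Lgr5-GFP, young libraries measured 121, 56.7 and 116 CPM and old libraries 72.0, 105 and 119 CPM. The young and old libraries overlapped in both isolations, and no group was uniformly high or low. Group means were 88.2 ± 28.9 CPM for SM6 young, 70.8 ± 28.9 for SM6 old, 98.0 ± 35.8 for Lgr5-GFP young and 98.5 ± 24.0 for Lgr5-GFP old (SD, n = 3). The log2 fold change with age was -0.32 in SM6 (95% interval -0.92 to 0.28) and -0.035 in Lgr5-GFP (-0.62 to 0.55), with adjusted p = 0.724 and 0.988 by edgeR. The SM6 value was -0.056 without SM6 young replicate 1, the highest SM6 library, and -0.69 without SM6 old replicate 3, the highest old one, and the lowest adjusted p over all alternatives was 0.267. On average over the isolations the log2 fold change was -0.18, with an interval from a 1.51-fold decrease to a 1.18-fold increase. This average ran from -0.36 to -0.044 when 1 library at a time was left out. Between libraries of a group the biological coefficient of variation of Ezh2 was 23.9%, whereas its mean count of 149 a library would give 8.20% from counting alone.

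An E2F-type sequence was present in the promoter window of Ezh2 and in none of the windows of the 8 other members that had one. E2F factors switch on genes for DNA replication, and Ezh2 is a known E2F target. The motifs TTTGGCGC, TTTCGCGC and GGCGGGAA were searched on both strands of windows from 250 bases before to 50 after each start site, taken from RefSeq (GRCm38.p6). Windows were found for 9 of the 10 members and Cbx2 had none. At least 1 motif was present in 2.96% of all 32851 windows. The stretch of the Ezh2 window that ends with its match is shown because it holds the single match among the members, at chr6:47595020-47595087 on the minus strand, with the match in capitals.
Ezh2: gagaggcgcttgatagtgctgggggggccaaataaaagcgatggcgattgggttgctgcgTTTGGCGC
The match begins 3 bases after the RefSeq start site, which lies within the gene as GENCODE draws it. It describes the letters of the window and not a bound factor. Among 20 proliferation genes, 0 were called with age in either isolation and 1, Rrm2, was called lower on average, where 2.06% of all genes were.

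Ezh1 (chr11:101191115-101226463, minus strand), the alternative PRC2 methyltransferase of slowly dividing cells, was also without an age difference beyond its spread. The SM6 young libraries had 30.3, 26.0 and 22.4 CPM, and the SM6 old ones 24.2, 20.4 and 33.6 CPM. The Lgr5-GFP young libraries had 25.8, 16.1 and 21.1 CPM, and the Lgr5-GFP old ones 40.0, 18.7 and 15.4 CPM. The old Lgr5-GFP group contained both the highest and the lowest of the 12 values. Its log2 fold change was -0.025 in SM6 (-0.68 to 0.63, adjusted p = 0.990 by edgeR) and 0.23 in Lgr5-GFP (-0.43 to 0.89, adjusted p = 0.880).

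The balance of the methyltransferases was read from the log2 ratio of Ezh2 to Ezh1 counts within each library, to which scaling does not matter. Since 3′ counts of different genes need not be recovered equally, only its differences between groups can be read. Single libraries gave 1.94, 1.18 and 1.96 in SM6 young and 1.26, 1.29 and 1.62 in SM6 old. In Lgr5-GFP they gave 2.22, 1.79 and 2.45 in young and 0.84, 2.46 and 2.90 in old ISCs. Mean ratios for young and old were 1.69 ± 0.44 and 1.39 ± 0.20 (SD, n = 3) with SM6, against 2.15 ± 0.33 and 2.07 ± 1.09 with Lgr5-GFP, and the ages overlapped in both. Leaving out 1 library at a time, old minus young ran from -0.56 to -0.17 in SM6 and from -0.50 to 0.53 in Lgr5-GFP.

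Eed (chr7:89954654-89980983, minus strand), the PRC2 subunit that binds the methylated histone, was the steadiest of the 10 genes. Levels in SM6 were 78.9, 57.6 and 63.6 CPM for young and 77.9, 79.4 and 75.9 CPM for old ISCs. Levels in Lgr5-GFP were 81.3, 82.2 and 70.8 CPM for young and 84.0, 81.3 and 77.2 CPM for old ISCs. Apart from SM6 young replicates 2 and 3, every library lay between 70.8 and 84.0 CPM. The biological coefficient of variation was 13.4%, the lowest of the members, and the highest library was 1.46 times the lowest. Its log2 fold change was 0.22 in SM6 (-0.14 to 0.58, adjusted p = 0.669 by edgeR) and 0.05 in Lgr5-GFP (-0.30 to 0.41, adjusted p = 0.963). The average age effect had the narrowest interval of the members, from a 1.08-fold decrease to a 1.31-fold increase.

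Suz12 (chr11:79993106-80034123, plus strand), the scaffold of PRC2, showed overlapping ages as well. In SM6, young libraries measured 44.3, 38.2 and 26.7 CPM and old libraries 24.9, 39.4 and 42.3 CPM. In Lgr5-GFP, young libraries measured 29.3, 37.8 and 38.9 CPM and old libraries 31.3, 51.2 and 53.0 CPM. Lgr5-GFP old replicates 2 and 3 lay above all other libraries and replicate 1 within the young range. The log2 fold change was -0.041 in SM6 (-0.59 to 0.51, adjusted p = 0.976 by edgeR) and 0.35 in Lgr5-GFP (-0.18 to 0.89, adjusted p = 0.725).

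Jarid2 (chr13:44729474-44921643, plus strand), which helps to recruit PRC2 and has no demethylase activity of its own, differed little between group means. The SM6 young libraries had 55.8, 52.1 and 44.8 CPM, and the SM6 old ones 45.2, 42.1 and 51.9 CPM. The Lgr5-GFP young libraries had 61.4, 47.3 and 41.0 CPM, and the Lgr5-GFP old ones 44.7, 64.2 and 46.3 CPM. The highest of the 4 group means was 1.11 times the lowest, the smallest such ratio of the members. Old over young, the log2 fold change was -0.14 in SM6 (-0.59 to 0.31, adjusted p = 0.862 by edgeR) and 0.04 in Lgr5-GFP (-0.40 to 0.48, adjusted p = 0.980). On average it had an interval from a 1.29-fold decrease to a 1.20-fold increase.

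**Figure D2:**
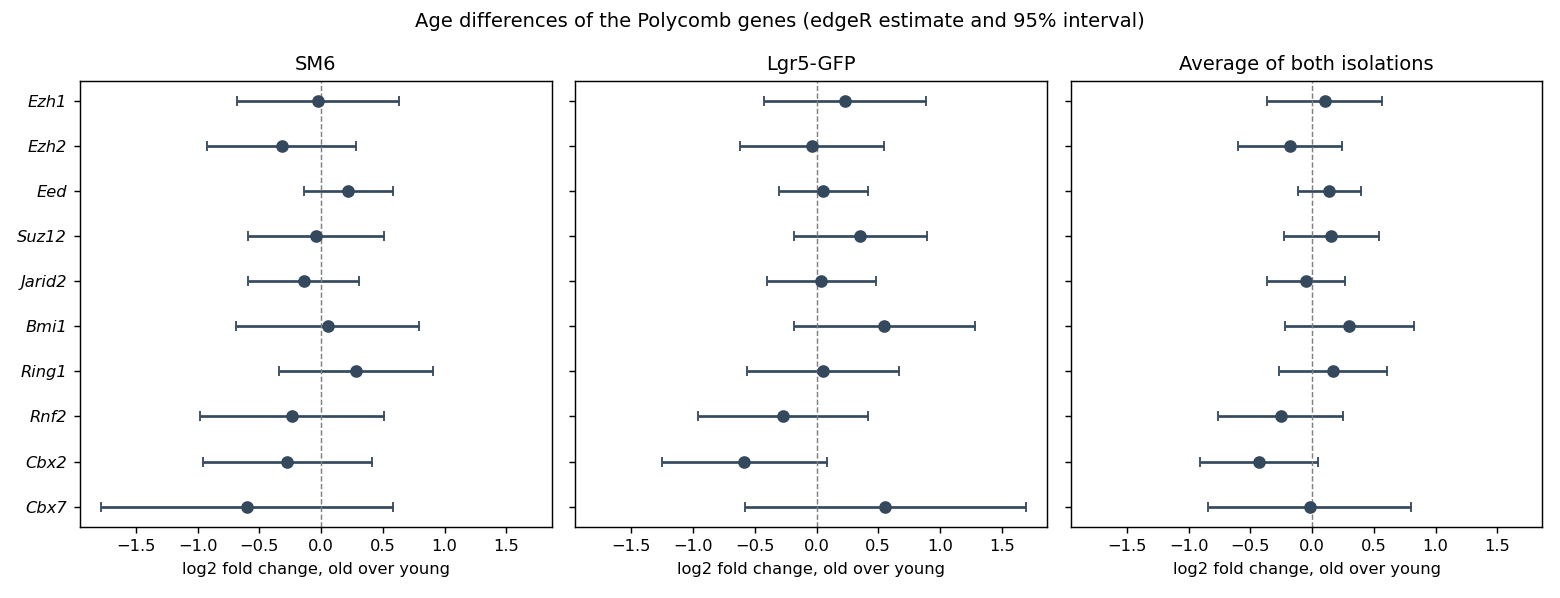
Log2 fold change of old over young for the 10 Polycomb genes in SM6, in Lgr5-GFP and averaged over the isolations. Points are edgeR estimates and bars 95% intervals; all 30 intervals include 0, and the widest are those of Cbx7.

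In PRC1, Ring1 (chr17:34020792-34024680, minus strand) is 1 of the interchangeable ubiquitin ligases. Levels in SM6 were 20.0, 17.7 and 14.5 CPM for young and 28.1, 18.3 and 17.6 CPM for old ISCs. Levels in Lgr5-GFP were 21.1, 14.2 and 22.4 CPM for young and 16.7, 19.5 and 26.0 CPM for old ISCs. SM6 old replicate 1 was the highest library, and its fellow replicates lay within the young range. The log2 fold change was 0.28 in SM6 (-0.34 to 0.91, adjusted p = 0.776 by edgeR) and 0.05 in Lgr5-GFP (-0.56 to 0.67, adjusted p = 0.980).

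Rnf2 (chr1:151458004-151500955, minus strand), also known as Ring1b, is the other ligase. In SM6, young libraries measured 16.4, 22.2 and 11.6 CPM and old libraries 14.0, 10.2 and 19.2 CPM. In Lgr5-GFP, young libraries measured 30.6, 20.8 and 22.8 CPM and old libraries 12, 30.1 and 21.2 CPM. The ages overlapped in both isolations, with log2 fold changes of -0.24 in SM6 (-0.98 to 0.51, adjusted p = 0.860 by edgeR) and -0.27 in Lgr5-GFP (-0.96 to 0.42, adjusted p = 0.860). Its group means were furthest apart among the members, at 1.71 times from SM6 old (14.5 ± 4.51 CPM) to Lgr5-GFP young (24.7 ± 5.16 CPM). The last 158 bases of the Rnf2 locus overlap Trmt1l on the opposite strand, and whether reads were counted by strand is not stated, so its 391 counts are uncertain to that extent. Log2 ratios of Rnf2 to Ring1 counts were -0.09 ± 0.36 for SM6 young, -0.56 ± 0.60 for SM6 old, 0.36 ± 0.29 for Lgr5-GFP young and -0.046 ± 0.58 for Lgr5-GFP old (SD, n = 3), with overlapping ages in both.

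Bmi1 (chr2:18677018-18686629, plus strand), the PRC1 partner that stimulates the ligase, was a low-count gene with 275 counts in all. The SM6 young libraries had 15.2, 15.5 and 11.6 CPM, and the SM6 old ones 21.0, 14.3 and 8.79 CPM. The Lgr5-GFP young libraries had 11.0, 17.0 and 10.8 CPM, and the Lgr5-GFP old ones 14.0, 24.4 and 16.4 CPM. SM6 old held both a high library and the lowest of the 12, with the young libraries between them, and in Lgr5-GFP the highest young library lay above 2 of the 3 old ones. Old over young, the log2 fold change was 0.05 in SM6 (-0.69 to 0.80, adjusted p = 0.977 by edgeR) and 0.55 in Lgr5-GFP (-0.18 to 1.28, adjusted p = 0.664). Of the 5 other reserve stem cell markers listed (Hopx, Lrig1, Tert, Mex3a and Clu), 0 were called in any of the 3 age comparisons, and 1, Clu, had an unadjusted p under 0.05 in SM6 and on average, limits that 13.1% and 12.8% of all genes passed.

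Cbx2 (chr11:119022962-119031270, plus strand), a chromodomain subunit that binds the PRC2 mark and compacts chromatin, had the lowest p among the members. Levels in SM6 were 12.1, 18.3 and 16.6 CPM for young and 11.7, 13.6 and 13.6 CPM for old ISCs. Levels in Lgr5-GFP were 21.4, 22.7 and 16.1 CPM for young and 8.66, 17.1 and 14.5 CPM for old ISCs. Old libraries lay mostly at or below the young ones, but in each isolation 1 young library fell inside the old range. The log2 fold change was -0.27 in SM6 (-0.96 to 0.41, adjusted p = 0.810 by edgeR) and -0.59 in Lgr5-GFP (-1.26 to 0.08, adjusted p = 0.588). The average was -0.43 (-0.91 to 0.05, adjusted p = 0.460), an interval from a 1.88-fold decrease to a 1.03-fold increase.

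Cbx7 (chr15:79915807-79971119, minus strand), another chromodomain reader of PRC1, was the sparsest member, with 98 counts over the 12 libraries. In SM6, young libraries measured 3.64, 6.65 and 7.95 CPM and old libraries 5.46, 4.75 and 1.60 CPM. In Lgr5-GFP, young libraries measured 3.15, 6.62 and 4.55 CPM and old libraries 6.66, 6.51 and 6.75 CPM. The lowest value rests on 2 counts, in the defensin-rich SM6 old replicate 3. Its log2 fold change was -0.60 in SM6 (-1.78 to 0.59, adjusted p = 0.742 by edgeR) and 0.56 in Lgr5-GFP (-0.58 to 1.69, adjusted p = 0.806), so a change of over 3-fold in either isolation lay within an interval. Adding the defensin share to the model turned the Lgr5-GFP value to -0.27. Counting alone would give a coefficient of variation of 35.0% at its mean of 8.17 counts. The final 100 bases of the locus overlap Apobec3 on the opposite strand, a gene with 918 counts.

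The log2 ratio of Cbx2 to Cbx7 counts was the one paralog ratio whose ages did not overlap in an isolation. In Lgr5-GFP it was 2.71, 1.71 and 1.78 in young and 0.36, 1.34 and 1.05 in old ISCs. In SM6 it was 1.66, 1.42 and 1.03 in young and 1.05, 1.45 and 2.81 in old ISCs, with overlap. Young and old means were 2.06 ± 0.56 and 0.92 ± 0.50 (SD, n = 3) with Lgr5-GFP, against 1.37 ± 0.32 and 1.77 ± 0.92 with SM6. Leaving out 1 library at a time, old minus young ran from -1.36 to -0.83 in Lgr5-GFP and from -0.12 to 0.76 in SM6. These ratios were not tested, and each rests on 2 to 12 counts of Cbx7 in a library. No share of non-overlap was computed for ratios of other gene pairs. For single genes, young and old Lgr5-GFP libraries did not overlap in 14.6% of all tested genes.

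**Figure D3:**
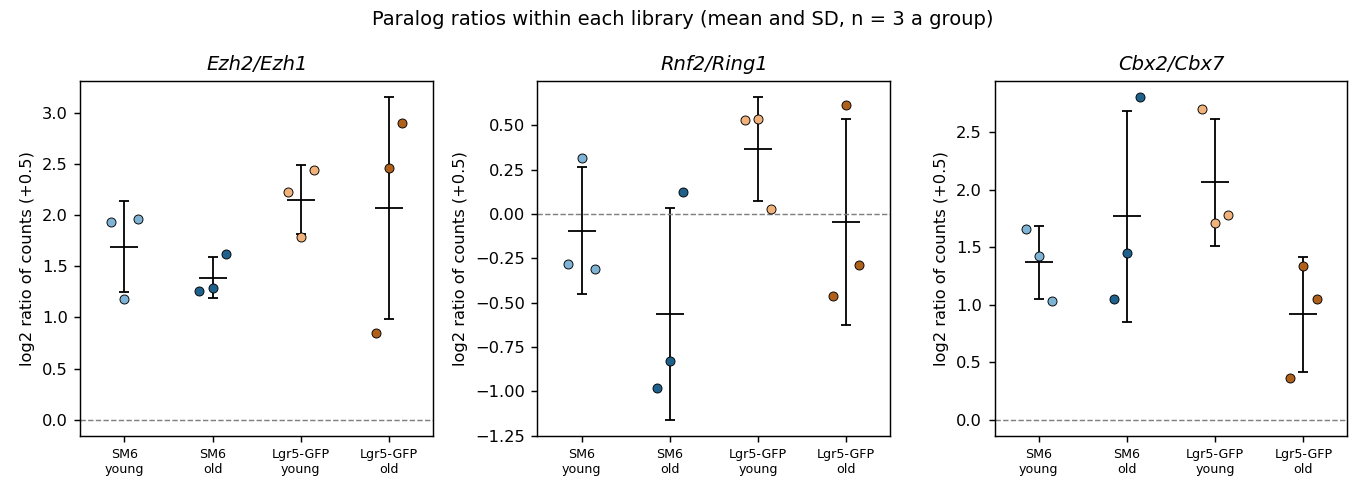
Log2 ratios of Ezh2 to Ezh1, Rnf2 to Ring1 and Cbx2 to Cbx7 counts within each library (0.5 added to each count), by group. Points are libraries, bars the means and error bars the SD of 3 libraries; the ages overlap except for Cbx2 to Cbx7 in Lgr5-GFP, where young libraries lie between 1.71 and 2.71 and old ones between 0.36 and 1.34.

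The age effects of the isolations were compared with each other by an interaction term, Lgr5-GFP minus SM6. Values ran from -0.31 for Cbx2 (95% interval -1.27 to 0.65) to 1.15 for Cbx7 (-0.48 to 2.79). The lowest adjusted p was 0.703 (edgeR), for Cbx7, and the other 8 members (Ezh1, Ezh2, Eed, Suz12, Jarid2, Bmi1, Ring1 and Rnf2) lay between these values. The median was 0.22 for the members and 0.004 for all genes. Leaving out 1 library at a time, the interaction ran from -0.54 to -0.054 for Cbx2 and from 0.80 to 1.42 for Cbx7.

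Between the isolations, young Lgr5-GFP ISCs differed from young SM6 ISCs by log2 values from -0.42 for Cbx7 (-1.54 to 0.69) to 0.57 for Rnf2 (-0.11 to 1.25, adjusted p = 0.718 by edgeR), with the other 8 between. In old ISCs the values ran from -0.054 for Ring1 (-0.69 to 0.58) to 0.73 for Cbx7 (-0.47 to 1.93, adjusted p = 0.760 by edgeR), again with the other 8 between. Leaving out 1 library at a time, Cbx7 ran from -0.69 to -0.16 in young and from 0.39 to 1.02 in old ISCs. Rnf2 ran from 0.38 to 0.83 in young ISCs. Cbx7 in old ISCs was the single case in which the libraries of compared groups did not overlap, at 6.51 to 6.75 CPM in Lgr5-GFP and 1.60 to 5.46 CPM in SM6. This was 1 of 10 members, where 13.5% of all tested genes did not overlap. The corresponding counts were 0 of 10 in young ISCs (13.7% of all genes), 0 of 10 for age in SM6 (17.5%) and 0 of 10 for age in Lgr5-GFP (14.6%). When the 4 group means of a member were put in order, neighbouring groups overlapped in every case for all 10 members.

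The wider Polycomb machinery was examined in lists of genes chosen by function. Of 9 other PRC2 subunits, 6 were tested and 0 were called in any comparison (edgeR), against 4.14% of all genes. At an unadjusted p under 0.05 the count was 0 of 6 for age in SM6 (13.1% of all genes), in Lgr5-GFP (9.79%) and on average (12.8%). All 6 had a log2 fold change below 0 in SM6, against 50.7% of all genes, with a median of -0.27 against -0.007. In Lgr5-GFP 4 of 6 were below 0, against 53.6% of all genes, with a median of -0.14.

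Among 22 other PRC1 subunits, all of them tested, 1 was called, lower with age in SM6, where 1.77% of all genes were called lower. Phc3 (chr3:30899371-30969415, minus strand) encodes a polyhomeotic subunit, which helps canonical PRC1 to assemble into larger bodies. It measured 52.2, 31.6 and 28.2 CPM in SM6 young and 15.6, 15.6 and 20.8 CPM in SM6 old, so every old library lay below every young one. In Lgr5-GFP, where the age difference did not pass the test, the order was the opposite, with 16.4, 18.0 and 12.4 CPM in young and 20.0, 26.0 and 22.2 CPM in old ISCs, again without overlap. Young and old libraries did not overlap for 17.5% of all genes in SM6 and 14.6% in Lgr5-GFP. Old over young, the log2 fold change was -1.11 (SE 0.29) in SM6, with adjusted p = 0.0388 by edgeR, and 0.56 (SE 0.30) in Lgr5-GFP, with adjusted p = 0.564. The difference between these age effects was 1.67 (SE 0.42), with adjusted p = 0.0661, which missed the threshold. The SM6 call was lost without SM6 young replicate 1 (-0.79, adjusted p = 0.245), SM6 young replicate 2 (-1.22, adjusted p = 0.0691), SM6 old replicate 1 (-1.03, 0.169) or SM6 old replicate 2 (-1.04, 0.162), and with the SM6 libraries fitted alone (-1.11, 0.0529). Without the 2 defensin-rich libraries, 1 of them SM6 old replicate 3, it was -1.25 with adjusted p = 0.0404. The ISC, Paneth, goblet and enterocyte markers given above moved with age in the same SM6 libraries. Over all 25 alternatives its adjusted p by edgeR, DESeq2 or limma ran from 0.00981 to 0.245. The median of the 22 genes was -0.15 in SM6 and 0.09 in Lgr5-GFP.

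**Figure D4:**
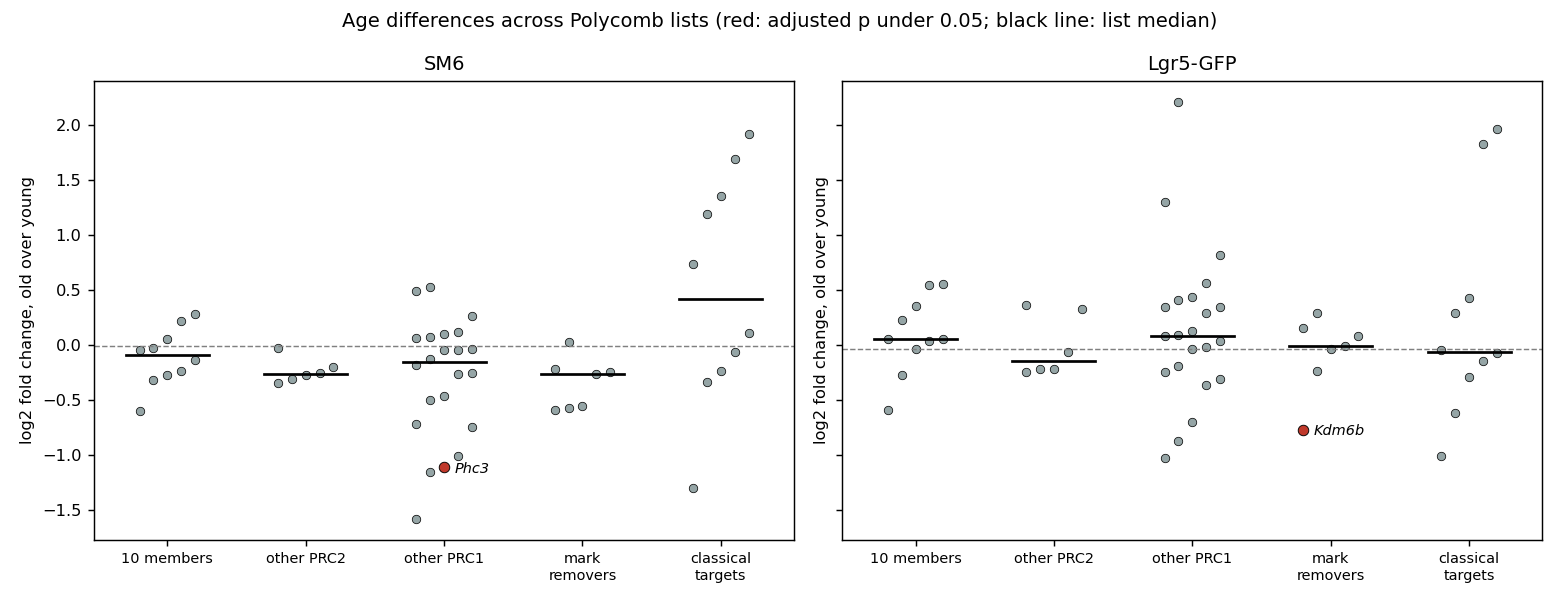
Log2 fold change of old over young for the tested genes of 5 Polycomb lists in SM6 and in Lgr5-GFP. Points are genes, black lines list medians, the dashed line the median of all 13368 tested genes and red points genes with an adjusted p under 0.05; these are Phc3 in SM6 and Kdm6b in Lgr5-GFP.

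Of 7 genes whose products remove Polycomb marks or help to do so, all tested, 1 was called, lower with age in Lgr5-GFP (0.284% of all genes) and on average (2.06%). Kdm6b (chr11:69398508-69413675, minus strand), also known as Jmjd3, is a demethylase that takes off the PRC2 mark. It measured 439, 349 and 370 CPM in Lgr5-GFP young and 257, 239 and 184 CPM in Lgr5-GFP old, where every old library was below every young one. Young and old Lgr5-GFP libraries did not overlap for 14.6% of all genes, in either direction. In SM6 the young libraries had 368, 447 and 414 CPM and the old ones 371, 295 and 370 CPM, with a slight overlap. Its log2 fold change was -0.77 (SE 0.17) in Lgr5-GFP, with adjusted p = 0.0398 by edgeR, and -0.25 (SE 0.17) in SM6, with adjusted p = 0.603. On average Kdm6b fell by 0.51 on the log2 scale (SE 0.12), with adjusted p = 0.0192 by edgeR. The age effects of the isolations differed by -0.52 (SE 0.24), with adjusted p = 0.504, so a difference between them was not called.

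The Lgr5-GFP call of Kdm6b stood close to the threshold. This call was lost in 8 of 12 fits that left out 1 library, with log2 fold changes between -0.87 and -0.64. Those libraries were SM6 young replicates 2 and 3 and each of the 6 Lgr5-GFP libraries, and the largest adjusted p among them was 0.225 (edgeR), without Lgr5-GFP old replicate 3. Paneth markers and the enterocyte genes Apoa1 and Apoa4 were lower in the same libraries, as given above. Adding the defensin share to the model gave -0.75 with adjusted p = 0.232. Without the 2 defensin-rich libraries it was -0.66 with adjusted p = 0.101, and with unscaled library totals -0.57 with adjusted p = 0.296 by edgeR. With the Lgr5-GFP libraries fitted alone it was -0.75 with adjusted p = 0.0648. The average effect stayed called with the defensin share in the model (-0.50, adjusted p = 0.0171) and without the 2 defensin-rich libraries (-0.47, adjusted p = 0.0332). It lost its call without SM6 young replicate 2 (-0.47, adjusted p = 0.0676 by edgeR), SM6 old replicate 2 (-0.46, 0.0680), Lgr5-GFP young replicate 1 (-0.45, 0.0585) or Lgr5-GFP old replicate 3 (-0.44, 0.0708), and with unscaled totals (-0.49, 0.0920). Over the alternatives the adjusted p ran from 0.00134 (DESeq2) to 0.296 in Lgr5-GFP and from 0.00139 (DESeq2) to 0.0920 on average. The median of the 7 genes was -0.26 in SM6, with 6 below 0, and -0.007 in Lgr5-GFP, with 4 below 0.

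**Figure D5:**
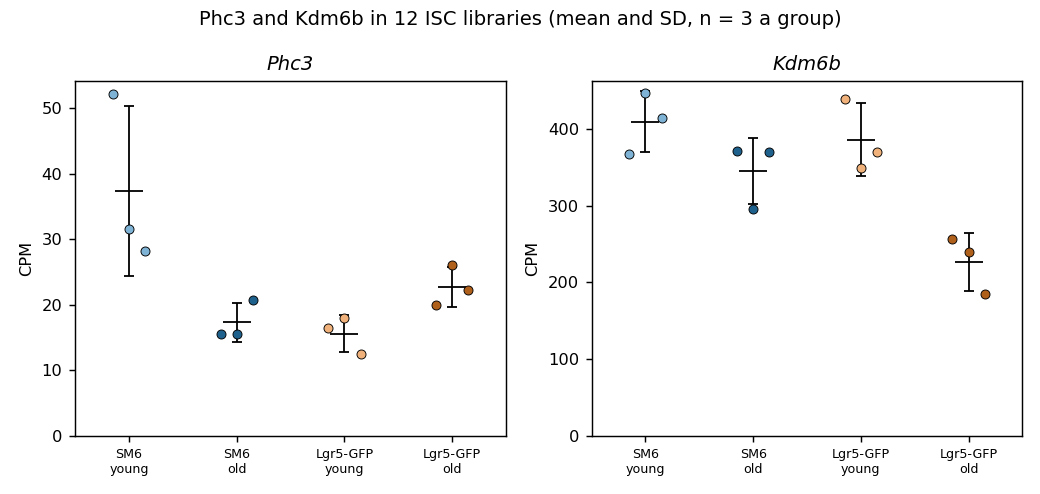
Level of Phc3 and Kdm6b in each library in CPM, on linear axes that start at 0, by group. Points are libraries, bars the means and error bars the SD of 3 libraries; Phc3 ran from 15.6 to 20.8 CPM in SM6 old against 28.2 to 52.2 in SM6 young, and Kdm6b ran from 184 to 257 CPM in Lgr5-GFP old against 349 to 439 in Lgr5-GFP young.

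Genes known as Polycomb targets in other cells were mostly undetected, in a share close to that of the whole table. The table also holds noncoding genes and pseudogenes, and a share for protein-coding genes alone was not computed. The values therefore do not tell whether these targets were more silent than other protein-coding genes. Of 48 such genes, 28 had no count in any library (58.3%, against 56.4% of all genes of the table). The filter for testing was passed by 10 of them (20.8%, against 24.6% of all genes), of which 0 were called in any comparison (edgeR). At an unadjusted p under 0.05, 2 of the 10 were higher with age in SM6 (13.1% of all genes passed in either direction), 1 was higher and 1 lower in Lgr5-GFP (9.79%), and 2 were higher and 1 lower on average (12.8%). In SM6 these were Hoxb9 (1.35, adjusted p = 0.297 by edgeR) and Cdkn2b (1.69, adjusted p = 0.159), which encodes the cell cycle inhibitor p15. Cdkn2b measured 8.50, 4.43 and 8.67 CPM in SM6 young and 33.5, 28.5 and 7.19 CPM in SM6 old, with overlap, and its Lgr5-GFP value was -0.14. In Lgr5-GFP they were Hoxb8 (1.96, adjusted p = 0.407 by edgeR) and Gata4 (-0.61, adjusted p = 0.474), a transcription factor of the proximal intestine. On average they were Hoxb5 (1.87, adjusted p = 0.234 by edgeR), Hoxb9 (0.89, adjusted p = 0.357) and Gata4 (-0.48, adjusted p = 0.288). Cdkn2a, the locus of the cell cycle inhibitor p16 and a standard readout of Polycomb loss in senescent cells, had 0 counts among 19669804, which allows up to 0.153 CPM over all libraries by counting error only. Whether molecular identifiers were collapsed is not stated, so counts may include copies of a molecule. The Hox genes, which set position along the body axis, differed between clusters. All 9 listed Hoxc genes were at 0, 8 of 9 Hoxd genes were at 0, and the 11 Hoxa genes had 51 counts together. The 10 Hoxb genes had 551 counts, of which 215 were from Hoxb7, and 6 of them were tested. The median log2 fold change of the 10 tested targets was 0.42 in SM6 and -0.06 in Lgr5-GFP, and it rests on low counts.

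The genes whose levels followed Ezh2 most closely over the 12 libraries were Slc44a3 (Pearson r 0.874, Spearman rho 0.818), Dhx32 (0.872 and 0.776) and Kif21a (0.857 and 0.818). They were the top 3 of 8326 tested genes with a mean of at least 10 CPM, so high values are favoured by the choice. The points are libraries of 4 groups that differ in depth and in Paneth content, and the correlations are given as a description only.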

How the data were processed

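ISC libraries of 12 mice were analysed. Per the labels and methods, the authors aligned reads to GRCm38 with STAR 2.4.2a and counted them over GENCODE exons with featureCounts, and they deposited raw counts per gene. Collapsing of molecular identifiers and strand of counting are not given in the sources used here. All 12 columns were used, grouped by sample title. Positions are from GENCODE vM21.

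Genes with more than 5 reads and at least 1 CPM in at least 1 library were kept (13368). Totals were scaled by TMM, and edgeR 4.0.16 (R 4.3.3) fitted group means to all 12 libraries together by quasi-likelihood. Tests were two-sided with Benjamini-Hochberg adjustment. Alternatives used DESeq2 1.42.0, limma 3.58.1, other scalings and filters, and subsets of libraries. The fit was tested on simulated data. Figures used matplotlib 3.10.9. All pairs of replicates differed by more than sampling noise.

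The members and gene lists were chosen with earlier results of these data known. All members are named. Genes of other Polycomb lists are named if called in at least 1 of 6 comparisons. The other markers, Rrm2, Cdkn2a, Cdkn2b, Gata4 and the Hox genes were named after their values were seen.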

Additional observations from a re-analysis of the deposited data

Results flagged for a closer look

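Phc3, which encodes a polyhomeotic subunit of PRC1, was called lower with age in SM6 (-1.11, adjusted p = 0.0388 by edgeR), whereas its Lgr5-GFP value of 0.56 was not called (adjusted p = 0.564). The SM6 call was lost in 4 of 12 fits that left out 1 library, with an adjusted p of up to 0.245, and with the SM6 libraries fitted alone (0.0529), and ISC, Paneth, goblet and enterocyte markers moved with age in the same libraries. All 3 old SM6 libraries lay below all 3 young ones, and all 3 old Lgr5-GFP libraries lay above all 3 young ones; 17.5% and 14.6% of all genes showed such separation in either direction. The Lgr5-GFP age effect exceeded that of SM6 by 1.67 on the log2 scale, with an adjusted p of 0.0661 over all genes by edgeR's interaction term, which missed the threshold. In young ISCs Phc3 was lower in Lgr5-GFP than in SM6 by -1.28 on the log2 scale (adjusted p = 0.0760 by edgeR) without overlap of the libraries.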

How the results depend on the processing

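Under each of the 25 alternatives, 0 of the 10 members were called in every comparison where the alternative could be fitted. Over all genes, the number called with age was 323 in SM6 (143 to 603 under alternatives) and 63 in Lgr5-GFP (20 to 274), lowest at an adjusted p under 0.01 and highest without a filter. Uncalled values changed sign, among them the 1.15 of Cbx7 for the interaction, and their causes were not tested. With unscaled library totals, which moved the median of all genes to -0.16 in SM6 and 0.16 in Lgr5-GFP, Bmi1 was -0.070 for age in SM6, Ezh2 0.17 for age in Lgr5-GFP, Cbx7 0.0063 for the average age effect, Cbx2 0.056 for the interaction and Ring1 0.14 for old Lgr5-GFP against old SM6. DESeq2 gave 0.0024 for Ezh2 in Lgr5-GFP, and limma voom gave -0.027 for Jarid2 in Lgr5-GFP and 0.072 for Cbx7 on average. With the defensin share in the model, Ezh2 was 0.39, Rnf2 0.22 and Cbx7 -0.27 for age in Lgr5-GFP, Jarid2 0.018 on average, and Cbx7 -0.17 for the interaction and 0.34 between young isolations. Without the 2 defensin-rich libraries, Ezh2 was 0.14 in Lgr5-GFP, and Jarid2 0.016 and Cbx7 0.037 on average.

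Leaving out 1 library at a time, age values in SM6 ran from -0.24 to 0.13 for Ezh1, -0.21 to 0.17 for Suz12, -0.26 to 0.32 for Bmi1 and -0.48 to 0.027 for Rnf2. In Lgr5-GFP they ran from -0.33 to 0.46 for Ezh1, -0.28 to 0.15 for Ezh2, -0.012 to 0.092 for Eed, -0.14 to 0.24 for Jarid2, -0.13 to 0.20 for Ring1 and -0.63 to 0.035 for Rnf2. On average they ran from -0.18 to 0.22 for Ezh1, -0.14 to 0.052 for Jarid2 and -0.15 to 0.17 for Cbx7. For old Lgr5-GFP against old SM6, Ring1 ran from -0.24 to 0.19. Some values kept their sign but not their size, with SM6 ranges of -0.69 to -0.056 for Ezh2, 0.058 to 0.41 for Ring1, -0.43 to -0.14 for Cbx2 and -0.86 to -0.23 for Cbx7, and Lgr5-GFP ranges of 0.22 to 0.57 for Suz12, 0.28 to 0.73 for Bmi1, -0.81 to -0.33 for Cbx2 and 0.30 to 0.79 for Cbx7. These runs covered 36 member values, the 30 age effects and the 6 extremes given for the interaction and the isolations, and the other 24 were recomputed only as counts of calls. Of the 884 values so obtained, 838 kept their direction and 46 did not.

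Same-numbered libraries did not deviate together (r between -0.082 and 0.035), so the numbers do not pair them. With a replicate block within isolation, Ezh2 in Lgr5-GFP was 0.012, 0 of 10 members were called for age, and all genes called numbered 375 in SM6 and 95 in Lgr5-GFP. The block was not run for the comparisons of isolations, within which it is nested. Depth limited Cbx7 most, with 2 to 12 counts in a library.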
